A study of Mus musculus with 12 samples.

Results

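The miR-302/miR-367 cluster is a group of 5 microRNA (miRNA) hairpins of the mouse, and it was followed here through the 5 rows that count their 3p arms: mmu-miR-302a-3p, mmu-miR-302b-3p, mmu-miR-302c-3p, mmu-miR-302d-3p and mmu-miR-367-3p. These are 5 of the 1978 mature miRNAs counted, chosen by name but with earlier results of these data known. The study sequenced small RNA of 2 kinds of mouse stem cell: embryonic stem cells (ESC) of line E14, which derive from the inner cell mass, and trophoblast stem cells (TSC), which give rise to the placenta. Both were taken untreated, labelled WT and called control here, and after pausing with an inhibitor of mTOR, the kinase that couples nutrients to growth. The labels name neither the inhibitor, its dose, the time in pause nor the culture medium, and ESC are represented by this single line. The labels list 3 samples per group, but within each group the third and the second were identical at all 1978 miRNAs. They thus differed by less than the sampling noise and were counted as 1 sample, which left 8 distinct libraries, n = 2 in each of the 4 groups. No label says whether replicates are separate cultures, and p-values measure only the spread between these samples, which may be technical.

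A miRNA cluster of this kind is made as a single long transcript, from which the nuclear enzyme Drosha cuts the hairpins and the cytoplasmic enzyme Dicer cuts a duplex of 2 arms, 5p and 3p. One arm is usually kept in an Argonaute protein and guides it to messenger RNAs that pair with the seed, bases 2 to 8 of the miRNA. The miR-302/miR-367 cluster is a hallmark of pluripotent cells, is a known target of the pluripotency factors OCT4 and SOX2, and is more active in the primed, epiblast-like state than in naive ESC. The miR-302 arms are known, together with the miR-290/miR-295 cluster that carries the same seed, to promote passage from G1 into S phase by repressing inhibitors of the cell cycle. miR-367 has an unrelated seed, that of the miR-25/miR-92 family.

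Mature sequences of 4 of the 5 members were read from RefSeq (GRCm38.p6) and are shown because the seeds, in capitals, sort the cluster into its families. The order is that of the hairpins along the chromosome.
miR-302b-3p: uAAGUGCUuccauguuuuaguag
miR-302c-3p: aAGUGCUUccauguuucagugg
miR-302d-3p: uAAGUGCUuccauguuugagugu
miR-367-3p: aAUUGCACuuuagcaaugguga
miR-302b-3p and miR-302d-3p had the same seed and the same bases 1 to 17, and differed only in the 3′ part. miR-302c-3p shared an unbroken run of 16 bases with both, but its annotated 5′ end lies 1 base further along, so bases 2 to 8 counted from its own end read differently. The longest run that miR-367-3p shared with any of these 3 arms was 5 bases.

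In GRCm38 the 5 hairpins lie within 580 bases of the plus strand of chromosome 3 (chr3:127545228-127545807), in the order miR-302b, miR-302c, miR-302a, miR-302d and miR-367. The whole cluster sits in an intron of Larp7 (intron chr3:127544279-127545825), which is transcribed from the opposite strand and encodes a protein bound to the 7SK RNA. In both Larp7 transcripts of the annotation that span the cluster, no hairpin overlapped an exon. RefSeq also places a non-coding gene, Gm51018 (chr3:127545089-127546903), on the strand of the hairpins, starting 139 bases before the miR-302b hairpin and covering all 5. The 300 bases around its start, 250 before and 50 from the start on (chr3:127544839-127545138, plus strand), are shown because all 5 members lie downstream of this start, with the letters of a TATA box, TATAAA, in capitals.
Gm51018 start region: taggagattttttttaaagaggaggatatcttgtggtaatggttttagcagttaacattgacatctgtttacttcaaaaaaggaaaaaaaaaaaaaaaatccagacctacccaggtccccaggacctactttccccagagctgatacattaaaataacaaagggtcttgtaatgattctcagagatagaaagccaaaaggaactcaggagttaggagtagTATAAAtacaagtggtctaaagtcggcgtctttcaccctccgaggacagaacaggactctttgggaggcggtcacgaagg
TATAAA began 30 bases before the start, and 13.6% of 32851 RefSeq promoter windows of this length held it on either strand. The octamer of POU factors such as OCT4, ATTTGCAT (in 1.74% of windows), and the core of SOX factors, CATTGTT (3.78%), had no match on either strand of this window. These are matches of letters, not measured binding.

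The depth of the libraries sets what can be read from so rare a cluster. Control ESC had 19266 and 13607 counts in total and the paused ESC 73574 and 61749, while TSC had 115492 and 18725 as control cells and 23652 and 30487 when paused. Levels are given as CPM, counts scaled to a common library total with factors from the trimmed mean of M-values (TMM). A count of 0 allows up to 3 counts, worth between 37.4 and 192 CPM over the 8 libraries, and these limits and all intervals cover counting error only. The paused ESC libraries held 4.12 times as many counts in all as the control ESC libraries. Low counts of the cluster in paused ESC therefore came with the greater depth of the pair, not the lesser.

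The labelled cell types were checked against marker lists. The 7 early embryonic miRNAs, all of the miR-290/miR-295 cluster, were counted in every group. They summed to between 372583 and 385878 CPM in control ESC and between 387930 and 597398 CPM in control TSC. In paused cells the order turned, with between 424572 and 436116 CPM in ESC and between 381148 and 398036 CPM in TSC. That cluster was thus abundant under both labels and its sum does not tell them apart. The 6 trophoblast miRNAs summed to between 129771 and 159668 CPM in control TSC and to between 57907 and 74542 CPM in paused TSC. In ESC they summed to at most 8755 CPM. Most of the sum in TSC was miR-322-5p, at 118662 and 98292 CPM in control TSC and 456 and 895 CPM in control ESC. miR-466f-3p differed little between control cells, at 3464 and 3451 CPM in ESC and 4229 and 4454 CPM in TSC. miR-467a-5p had 0 counts in all libraries. The 9 miRNAs of fibroblasts, such as feeder cells, summed to between 1662 and 2005 CPM in control ESC (4 of 9 counted) and to between 2042 and 2382 CPM in paused ESC (5 of 9). In TSC they reached between 9450 and 15172 CPM before pausing (7 of 9) and between 10209 and 11945 CPM after it (4 of 9). Most of this was mmu-miR-22-3p, which stood at 1003 and 895 CPM in control ESC and at 14127 and 8968 CPM in control TSC. Of the narrower fibroblast markers, both arms of miR-199a had 0 counts in all 8 libraries, while miR-199b-5p and miR-214-3p had none in ESC but up to 7 counts each in a TSC library. Others were not lower in ESC. miR-143-3p stood at 729 and 511 CPM in control ESC and 701 and 241 CPM in control TSC. When paused it was at 636 and 603 CPM in ESC and 413 and 121 CPM in TSC. miR-145a-5p was at 273 and 192 CPM in control ESC and 140 and 60.2 CPM in control TSC. In paused cells it was at 324 and 232 CPM in ESC and had 0 counts in TSC. miR-145a-3p and miR-10b-5p had at most 9 counts in a library. The 5 neural miRNAs summed to at most 46.4 CPM in ESC and 127 CPM in TSC, with both arms of miR-9 and miR-124-3p at 0 in all libraries. The part of these lists in the differences between the cell types was not tested.

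All 5 members were counted in both libraries of control ESC, and they were not equally abundant. mmu-miR-367-3p, the member with the miR-25/miR-92 seed, had 20 and 20 counts, or 911 and 1278 CPM. mmu-miR-302b-3p had 11 and 17 counts (501 and 1086 CPM), and mmu-miR-302d-3p had 9 and 13 (410 and 831 CPM). mmu-miR-302a-3p had 2 and 6 counts (91.1 and 383 CPM), and mmu-miR-302c-3p had 3 and 3 (137 and 192 CPM). The first value of miR-302a-3p and both of miR-302c-3p were at or below the 3-count limit of their libraries. The second library was higher than the first for each of the 5 in CPM.

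In order of mean level in control ESC, miR-367-3p stood at 1095 ± 259 CPM (SD, n = 2), miR-302b-3p at 794 ± 414, miR-302d-3p at 620 ± 297, miR-302a-3p at 237 ± 207 and miR-302c-3p at 164 ± 38.9. Mature miRNAs are of nearly equal length, so no correction for length was made, but capture in the library can differ between sequences. Only 1 step in this order exceeded the spread. miR-302d-3p had 22 counts against 8 of miR-302a-3p, a ratio of 2.75 (95% counting interval 1.18 to 7.14), and its libraries lay above both of miR-302a-3p. The other neighbours overlapped between libraries, with ratios of 1.43 (0.86 to 2.40) for miR-367-3p over miR-302b-3p, 1.27 (0.70 to 2.33) for miR-302b-3p over miR-302d-3p and 1.33 (0.41 to 4.66) for miR-302a-3p over miR-302c-3p. Of the 104 counts of the cluster in control ESC, miR-367-3p took 38.5%, miR-302b-3p 26.9%, miR-302d-3p 21.2%, miR-302a-3p 7.69% and miR-302c-3p 5.77%. The level did not follow the order of the hairpins. miR-302c and miR-302a lie between miR-302b and miR-302d, and their 3p arms were below those of both in each library.

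**Figure D1:**
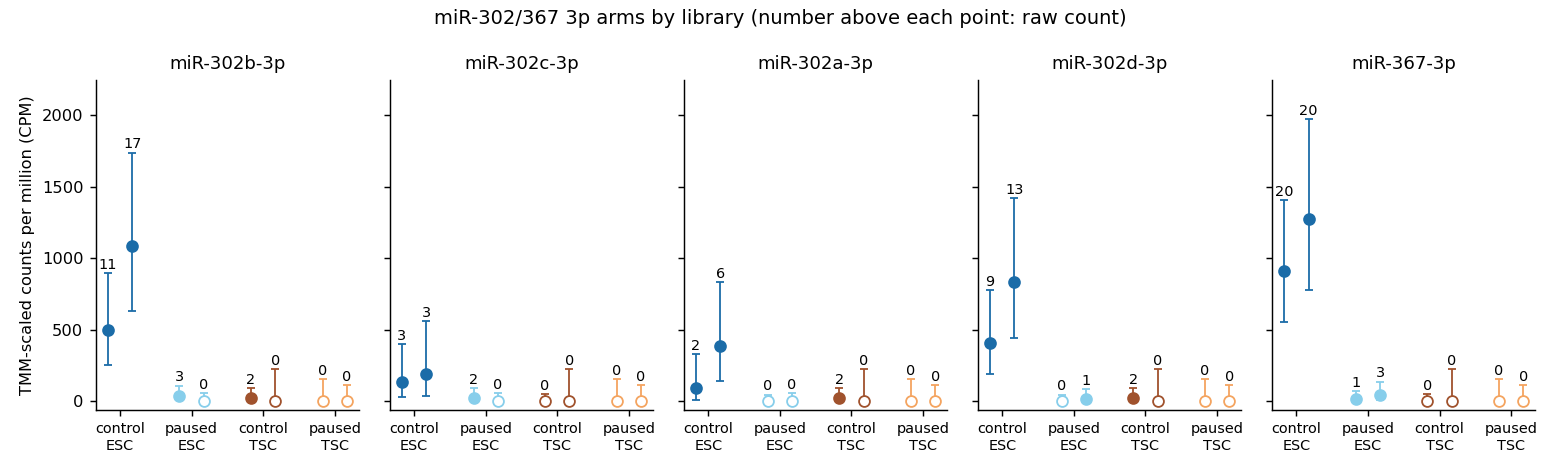
TMM-scaled CPM of the 5 3p arms in the 8 libraries (2 points per group, control and paused ESC in blue, control and paused TSC in brown and orange), with 95% Poisson intervals of each count and the raw count printed above; open circles are counts of 0. Both control ESC libraries lie above every other library in all 5 panels, from 91.1 CPM for miR-302a-3p to 1278 CPM for miR-367-3p. The lower control ESC value of miR-302a-3p and both of miR-302c-3p are at or below the limit of 3 counts in their libraries.

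In paused ESC the cluster was nearly gone from the counts. miR-367-3p had 1 and 3 counts (12.5 and 46.4 CPM), miR-302b-3p 3 and 0 (37.4 and 0 CPM), miR-302c-3p 2 and 0 (24.9 and 0 CPM) and miR-302d-3p 0 and 1 (0 and 15.5 CPM). miR-302a-3p had none in either library. Every one of these values was at or below the 3-count limit of its library, and for each of the 5 members both control libraries lay above both paused ones. For comparison, libraries separated in that direction for 34% of the 206 miRNAs tested, and for 21.2% of the 528 miRNAs with any count in ESC.

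Pooled over libraries and scaled, the 3p arms of the cluster were 40.1 times as high in control as in paused ESC (20.9 to 86.0, 104 against 10 counts). Single members gave ratios of 38.5 for miR-367-3p (13.9 to 148), 36.0 for miR-302b-3p (11.1 to 185), 84.8 for miR-302d-3p (13.7 to 3498) and 11.6 for miR-302c-3p (2.07 to 117). miR-302a-3p was 10.3-fold higher in control ESC against a limit of 3 counts over the paused pair. That value leaves out the counting error of its own control counts. These intervals overlap, so the members cannot be ranked by the size of their decrease at this depth. The 5 rows come from a shared transcript and the same libraries, so they are not 5 independent measurements of the change.

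Of the 5 members, 3 had enough counts to be tested among the 206 miRNAs, and edgeR's quasi-likelihood test with Benjamini-Hochberg adjustment called 3 of 3 lower in paused ESC, where 19.4% of all tested miRNAs were called lower. All 3 reached the filter on low counts only through control ESC, so their direction was fixed in part by the filter and their count is no support for it. miR-367-3p had a log2 fold change of −5.14 ± 0.79 (SE; adjusted p = 2.57e-09), miR-302b-3p of −5.02 ± 0.97 (adjusted p = 2.95e-06) and miR-302d-3p of −5.92 ± 1.27 (adjusted p = 3.58e-05). DESeq2 gave adjusted p-values of 8.99e-05, 0.00153 and 0.00457 for the same miRNAs. The median over the 3 was −5.14, and that over all 206 was −0.03. With no filter on low counts, miR-302a-3p was called as well (adjusted p = 0.00421) and miR-302c-3p was not (adjusted p = 0.201). Without control ESC replicate 2, which leaves that group 1 library assumed to vary like the others, miR-367-3p was still called (−4.59, adjusted p = 0.0108), miR-302b-3p was not (−4.11, adjusted p = 0.110) and miR-302d-3p no longer reached the filter. The size of the fold also moved with the paused libraries. Without paused ESC replicate 1 it was −8.01 for miR-302b-3p, −5.07 for miR-302d-3p and −4.49 for miR-367-3p. Without paused ESC replicate 2 it was −4.07, −7.66 and −5.96 for the same miRNAs.

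As a share of each library, the 5 members made up 0.234% and 0.434% of the counts in control ESC (mean 0.334% ± 0.141, SD, n = 2) and 0.00816% and 0.00648% in paused ESC (0.00732% ± 0.00119). Most counts of these cells fall on the miR-290/miR-295 cluster, and against the counts outside it the share was 0.903% ± 0.343 before and 0.0210% ± 0.00348 after pausing. In bulk samples, fewer cells that express the cluster and less of it per cell cannot be told apart. The 6 miRNAs of the blood list summed lower in paused ESC, with between 7839 and 9650 CPM in control and between 4610 and 5225 CPM in paused cells, but its members went different ways. miR-142a-5p, at 3737 and 5752 CPM in control and 312 and 170 CPM in paused ESC, and miR-142a-3p made up the decrease of the sum. mmu-miR-150-5p, known from lymphocytes, was higher in paused ESC, at 4739 and 4316 CPM against 2461 and 1406 CPM (log2 fold change 1.20, adjusted p = 0.00813 by edgeR). miR-144-3p had no count in control and 2 in paused ESC, and the defining red cell and myeloid markers miR-451a and miR-223-3p were at 0 in all libraries. The trophoblast list also summed lower, from between 7793 and 8755 CPM in control to between 1035 and 1191 CPM in paused ESC. Nearly all of this was miR-669f-3p (3783 and 4346 CPM against 187 and 248 in paused ESC) and miR-466f-3p (3464 and 3451 against 212 and 201). miR-322-5p did not fall in this way, at 456 and 895 CPM in control and 574 and 665 CPM in paused ESC. miR-322-3p went from no count to 3 and 4 counts. The part of either list in the change of the cluster was not tested.

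The opposite arms of the hairpins, which are not among the members, gave a second reading of the same transcript. In control ESC the 5p arms held 19 of the 123 counts of the cluster, or 15.4% (95% Clopper-Pearson interval 9.56 to 23.1). The hairpins differed in this. miR-302a gave 9 counts of its 5p arm and 8 of its 3p arm, a 5p share of 52.9% (27.8 to 77.0), and it was the sole hairpin with more 5p than 3p counts there. The 5p share was 21.4% (8.30 to 41.0) for miR-302d and 12.5% (3.51 to 29.0) for miR-302b. miR-367 gave 0 of 40 counts on its 5p arm, which allows a share of up to 8.81% at the upper end of the interval, and miR-302c gave 0 of 6. The sequences of the 3 counted 5p arms are shown with bases 2 to 8 in capitals, since the arm of miR-302a differs there from those of miR-302b and miR-302d.
miR-302a-5p: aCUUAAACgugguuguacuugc
miR-302b-5p: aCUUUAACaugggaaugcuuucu
miR-302d-5p: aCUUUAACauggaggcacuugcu

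**Figure D2:**
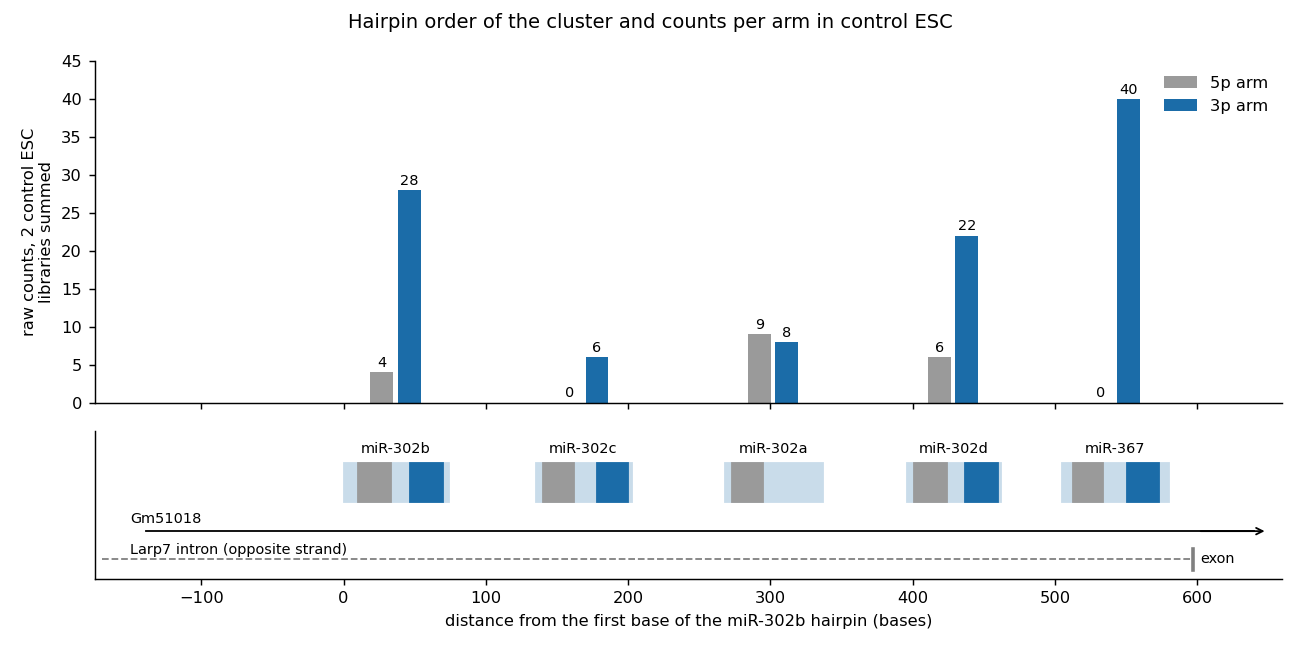
Upper panel, raw counts of the 5p (grey) and 3p (blue) arm of each hairpin summed over the 2 control ESC libraries; lower panel, hairpins (light blue) with their annotated arms, Gm51018 and the Larp7 intron against distance in bases from the start of the miR-302b hairpin. Arms are drawn where the RefSeq table gives a position. The 3p bar is the taller for miR-302b, miR-302c, miR-302d and miR-367, and miR-302a has 9 counts on 5p and 8 on 3p.

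The 5p arms were lower in paused ESC too. Their sum went from 19 counts in control to 3 in paused ESC, a scaled ratio of 24.4 (7.18 to 129). miR-302a-5p had 5 and 4 counts in control and none in paused ESC, which puts it 11.6-fold above the 3-count limit of the paused pair. miR-302b-5p had 2 and 2 counts in control and none in paused ESC, 5.14-fold above that limit. Neither value includes the counting error of the control counts. For miR-302b-5p the pooled control interval starts at 29.0 CPM, close to the paused limit of 20.7 CPM. miR-302d-5p had 3 and 3 counts in control against 3 and 0 in the deeper paused libraries, a ratio of 7.71 (1.65 to 47.6). For these 3 arms the CPM of the control libraries lay above those of the paused ones, and none had enough counts to be tested. Libraries separated in that direction for 21.2% of the 528 miRNAs with any count in ESC. Both control values of miR-302b-5p and of miR-302d-5p were at or below the 3-count limits of their libraries, 137 and 192 CPM. No 5p arm was counted in any TSC library.

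In TSC the cluster was at the edge of detection. Control TSC replicate 1, the deepest library, held 2 counts each of miR-302a-3p, miR-302b-3p and miR-302d-3p, 25.5 CPM each, and none of miR-302c-3p or miR-367-3p. Control TSC replicate 2 and both paused TSC libraries held no count of any member. A count of 0 there allows up to 181 CPM in control replicate 2 and up to 124 and 90.7 CPM in the paused libraries, so the 25.5 CPM of the deepest library would not have been detectable in the others. As a share of the library the cluster was at 0.00520% in control replicate 1, and the limits of the 2 paused libraries were 0.0127% and 0.00984%. Whether pausing lowers the cluster in TSC could not be seen at this depth. edgeR called 0 of the 3 tested members there (adjusted p = 0.584, 0.604 and 1, none with an unadjusted p under 0.05), against 18.9% of all tested miRNAs in either direction, and DESeq2 called 0 as well, with no adjusted p for 2 of them.

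Between the cell types in control, all 5 members were higher in ESC, with no overlap between the counted values of the libraries. Libraries separated in that direction for 39.3% of the tested miRNAs and for 24.2% of the 554 with a count in these groups. For miR-302a-3p (2 counts in control ESC replicate 1) and miR-302c-3p (3 and 3) the separation rests on ESC values at or below the 3-count limit. A count of 0 in control TSC replicate 2 allows up to 181 CPM, so their separation from that library is not secure. The pooled 3p counts were 104 in ESC and 6 in TSC, a scaled ratio of 43.9 (19.5 to 122). Against a limit of 3 counts over the TSC pair, miR-367-3p was 33.7-fold higher in ESC and miR-302c-3p 5.06-fold. These 2 values leave out the counting error of the ESC counts. The ratio was 35.4 for miR-302b-3p (8.93 to 307), 27.8 for miR-302d-3p (6.84 to 244) and 10.1 for miR-302a-3p (2.02 to 97.8). edgeR called 3 of 3 tested members higher in control ESC, where 33.5% of all tested miRNAs were called higher (adjusted p = 4.96e-10 for miR-367-3p, 1.23e-05 for miR-302b-3p and 0.000335 for miR-302d-3p). Here too the 3 reached the filter only through control ESC, so neither their count nor their median supports the direction. The median of all tested miRNAs in this comparison was −0.23 on the log2 scale, that of the 3 members 5.01. Without control TSC replicate 1, the sole TSC library with counts of the cluster, the log2 fold change of miR-302b-3p went from 5.01 to 7.79 and that of miR-302d-3p from 4.66 to 7.44, values that then depend on the prior count. Without control ESC replicate 2, miR-302d-3p could not be tested. These ratios share the control ESC libraries with those of pausing and are not a separate sighting of high levels there.

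In the paused state the cell types were no longer separated by the test. edgeR called 0 of 3 members between paused ESC and paused TSC (adjusted p = 0.244 for miR-367-3p, 0.362 for miR-302b-3p and 0.635 for miR-302d-3p, none with an unadjusted p under 0.05), DESeq2 likewise called 0, and 76.7% of all tested miRNAs were called in either direction. With 10 counts in paused ESC and 0 in paused TSC, whose pooled floor is 52.4 CPM per miRNA, a difference was not detectable, which does not show that the levels were alike. The difference between the effect of pausing in ESC and in TSC was called for 0 of the 3 by edgeR (none with an unadjusted p under 0.05), against 26.2% of all tested miRNAs. It cannot be estimated where both TSC groups are at or near 0 counts. DESeq2 gave no adjusted p for these 3, and its unadjusted p was under 0.05 for 1 of them, miR-367-3p (0.0222).

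The seeds of the cluster are also carried by miRNAs from other loci, which tells how much of the pool with a given seed the cluster supplied. 3 abundant arms of the miR-290/miR-295 cluster on chromosome 7 carry the seed of miR-302b-3p and miR-302d-3p, in capitals here.
miR-291a-3p: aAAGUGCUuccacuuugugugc
miR-294-3p: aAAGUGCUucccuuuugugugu
miR-295-3p: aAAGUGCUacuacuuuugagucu
No counted miRNA with an entry in the table shared bases 2 to 8 with miR-302c-3p. miR-302a-3p, for which RefSeq gave no mature sequence, was left out, and its counts are missing from the shares that follow. The family, with the miR-302 arms b, c and d, took 20.5% ± 1.96 (SD, n = 2) of the library in control ESC and 21.1% ± 1.92 after pausing. In TSC its part was 19.8% ± 4.03 in control cells and 19.7% ± 0.835 after pausing, and all 4 groups overlapped. These 3 miR-302 arms supplied 0.624% and 1.11% of it in control ESC against 0.0345% and 0.00723% in the paused ESC. They supplied 0.0153% and 0 of it in TSC before pausing and none after. Even where the cluster was highest, the miR-290/miR-295 arms thus made up nearly all counts with this seed.

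Those 3 partners did not fall with the miR-302 arms on pausing of ESC. edgeR called 0 of the 3 there, with an unadjusted p under 0.05 for 1 of them. Of all tested miRNAs, 19.4% were called lower and 8.25% higher, so 0 of 3 says little in itself. miR-291a-3p stood at 69992 ± 2693 CPM in control and 63294 ± 12870 in paused ESC (log2 fold change −0.15 ± 0.30 SE, adjusted p = 0.753), and miR-295-3p at 51400 ± 8561 and 45817 ± 4925 (−0.17 ± 0.30, adjusted p = 0.723). The sign of both values turned under some alternatives, among them no filter on low counts. miR-294-3p went from 56355 ± 3903 to 88201 ± 5823 CPM, with paused libraries above control ones (0.65 ± 0.30, adjusted p = 0.0924). DESeq2 called miR-294-3p higher (adjusted p = 0.00457), as did 10 of the 16 alternatives in all.

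The seed of miR-367-3p is carried by 5 other counted miRNAs and is again in capitals.
miR-25-3p: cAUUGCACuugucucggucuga
miR-92a-3p: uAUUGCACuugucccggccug
miR-363-3p: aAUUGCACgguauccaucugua
miR-32-5p: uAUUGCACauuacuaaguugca
miR-92b-3p: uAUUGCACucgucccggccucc
miR-25-3p comes from chromosome 5, miR-92a-3p from 2 copies of which 1 is in the miR-17-92 cluster on chromosome 14, miR-363-3p from the X chromosome, miR-32-5p from chromosome 4 and miR-92b-3p from chromosome 3. This family took 2.04% ± 0.105 of the counts in control ESC and 3.40% ± 0.327 after pausing, and in TSC 0.492% ± 0.0314 before and 0.797% ± 0.00906 after. miR-367-3p supplied 4.90% and 7.46% of it in control ESC and 0.0374% and 0.153% in paused ESC. It supplied none in TSC, where the family had as few as 88 counts in 1 library, which allows a share of up to 3.41% there.

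The partners of miR-367-3p did not move as a group on pausing of ESC. Of the 4 tested, edgeR called 2 higher, against 8.25% of all tested miRNAs, and 1 lower, against 19.4%. miR-25-3p rose from 9965 ± 1440 to 22150 ± 2623 CPM (1.15 ± 0.33 SE, adjusted p = 0.00272), and miR-92a-3p, a member of the miR-17-92 cluster known for driving proliferation, from 4050 ± 395 to 7965 ± 243 CPM (0.97 ± 0.34, adjusted p = 0.0230). The call of miR-92a-3p was lost in 3 of 16 alternatives, among them that without paused ESC replicate 1 (adjusted p = 0.0859). miR-32-5p fell from 616 ± 33.0 to 244 ± 27.2 CPM (−1.33 ± 0.52, adjusted p = 0.0374), a call that was lost in 11 of 16. miR-363-3p stood at 1784 ± 460 and 1147 ± 194 CPM (−0.62 ± 0.36, adjusted p = 0.208), and miR-92b-3p, too low to test, at 351 ± 45.6 and 289 ± 14.7 CPM. miR-367-3p thus changed in the direction opposite to that of the 2 most abundant miRNAs with its seed.

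**Figure D3:**
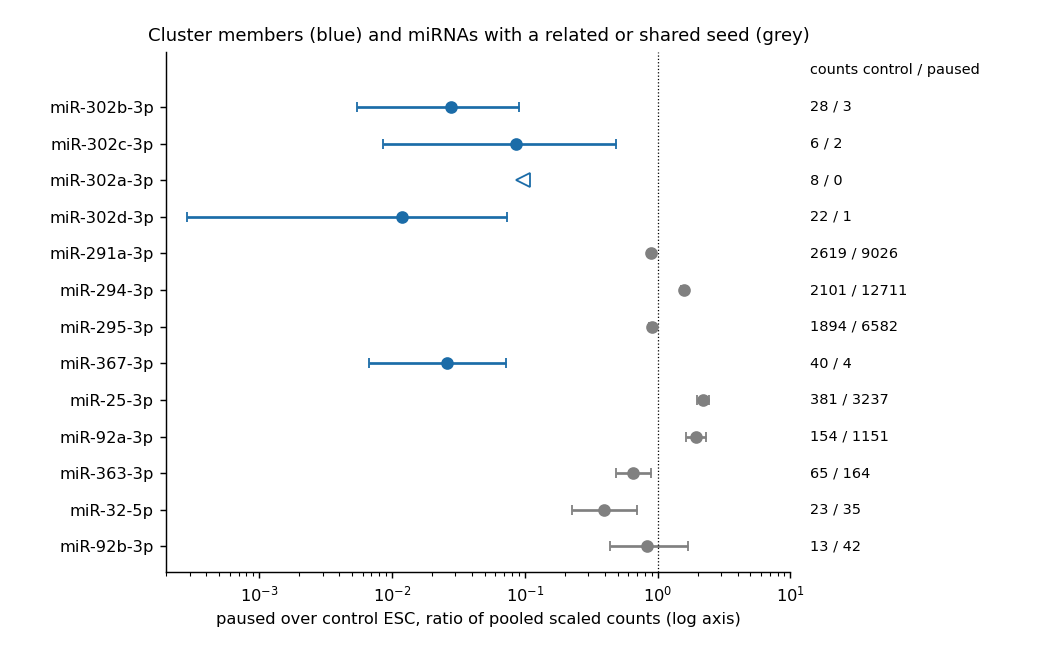
Ratio of pooled, scaled counts in paused over control ESC on a log axis for the 5 members (blue) and for the 8 miRNAs of other loci that carry a seed of the cluster (grey), with 95% counting intervals and the raw counts at the right; the open triangle is an upper limit set by 0 counts. The members lie at 0.0865 or below, or at a limit of 0.0973, and the partners between 0.395 and 2.20.

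On pausing of TSC, 0 of the 7 tested partners of both families were called by edgeR, 1 of them with an unadjusted p under 0.05, against 18.9% of all tested miRNAs, and DESeq2 called 0. By total count alone, and without control TSC replicate 2, 1 was called. Between control ESC and control TSC, 1 of the 3 partners with the miR-302 seed was called, miR-291a-3p, which was lower in ESC (−0.74 ± 0.30, adjusted p = 0.0188). That call held in 4 of 16 alternatives, and without control TSC replicate 1 the sign turned, with a value of 0.074. All 4 tested partners of miR-367-3p were called in the same comparison, where 74.3% of all tested miRNAs were called in either direction. miR-363-3p, from a cluster on the X chromosome, had 65 counts in ESC and 1 in TSC, a ratio of 164 (28.5 to 6595), and its adjusted p was 1.73e-19. miR-25-3p (log2 fold change 1.28, adjusted p = 0.000329) and miR-92a-3p (1.76, adjusted p = 1.02e-05) were higher in ESC. miR-32-5p was lower (−1.04, adjusted p = 0.0380), a call lost in 15 of the 16 alternatives. miR-363-3p was thus low in TSC as miR-367-3p was, but it kept 164 counts in the paused ESC libraries, where miR-367-3p had 4.

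**Figure D4:**
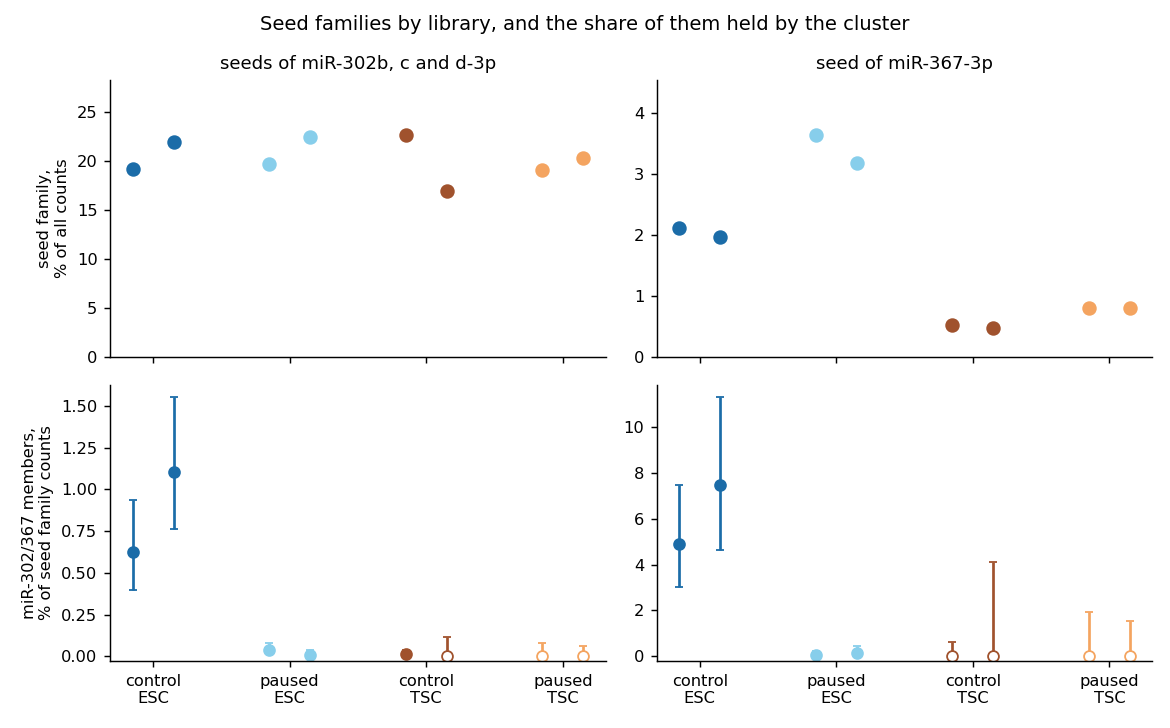
Upper panels, share of all counts of each library on miRNAs with a miR-302 seed (left) or the miR-367 seed (right); lower panels, share of those counts that came from the miR-302/miR-367 cluster, with 95% Clopper-Pearson intervals and open circles for 0 counts. The miR-302 seed family takes 16.9% to 22.6% of every library. The cluster supplies at least 0.624% of it in control ESC and a counted share of at most 0.0345% in any other library. For 0 counts the limit of 3 counts reaches 0.0947% and the drawn interval 0.116%.

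The miRNAs whose pattern over the 8 libraries was most like that of the summed cluster were found among the 203 other tested miRNAs, by the root mean square difference of centred log2 CPM profiles, which ran up to 5.24 with a median of 2.48. miR-142a-3p (0.487) and miR-142a-5p (0.517), the arms of a hairpin best known from blood cells, came first. They were followed at a distance by miR-708-3p (1.14), miR-154-3p (1.44) and miR-377-3p (1.45), the last 2 from the imprinted Dlk1-Dio3 region. miR-142a-5p had 82 and 90 counts in control ESC and 25 and 11 after pausing, and in TSC 7 and 0 before and 1 and 0 after. Its ratio of control over paused ESC was 18.4 (12.8 to 27.2) and that of miR-142a-3p 14.4 (8.73 to 25.0), lower values than the 40.1 of the cluster, with intervals that overlap that of the cluster. miR-708-3p, unlike these, was absent from all TSC counts. It had 9 and 7 counts in control against 4 and 6 in paused ESC, a ratio of 6.17 (2.63 to 15.2). miR-154-3p and miR-377-3p shared the difference between the cell types but changed less on pausing, with ratios of 1.89 (1.42 to 2.49) and 1.83 (1.32 to 2.52). Likeness here is a description over 8 libraries that share their depths.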

How the data were processed

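The deposited files hold raw counts per mature miRNA arm, whole numbers made by the authors from single-end small RNA reads; GRCm38 is the build per the submitters' processing notes. Aligner, counter, annotation release and handling of multiply matching reads: not given in the sources used here. Near-identical arms such as miR-302b-3p and miR-302d-3p may therefore exchange reads. Counts were scaled by TMM, and 206 miRNAs passed filterByExpr (minimum count 10, about 369 CPM unscaled in at least 2 libraries). edgeR 4.0.16 in R 4.3.3 fitted a quasi-likelihood model to all 4 groups (4 residual degrees of freedom, common dispersion 0.0456). Spreads were drawn fully to the trend, so p-values rest on a spread pooled over miRNAs. Tests were two-sided, at a Benjamini-Hochberg adjusted p under 0.05 over all tested miRNAs. Ratios of pooled counts used effective library sizes with exact 95% counting intervals. Against 0 counts the ratio was taken to 3 counts over the group, and the counting error of the other group was not included. CPM and tests use all counts of a library as its size, chosen after values on the totals of tested miRNAs had been seen; the latter changed no count of calls. The fit was tested on simulated data. Alternatives were DESeq2 1.42.0, other scalings, no filter, a replicate block and libraries left out in turn. Named miRNAs are the members, their 5p arms, the miRNAs of the same seed and the 5 of most like pattern; markers such as miR-22-3p and miR-150-5p were named after their values were seen. RefSeq sequences matched 1679 of the 1978 names. Members and lists were chosen with earlier results of these data known.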

Additional observations from a re-analysis of the deposited data

Results flagged for a closer look

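For 2 miRNAs that carry a seed of the cluster, the effect of pausing in ESC minus that in TSC passed edgeR's quasi-likelihood test of the difference itself. The 2 were among 7 such miRNAs tested. That test called 26.2% of all tested miRNAs, so their number is no result about these seeds. miR-294-3p, with the miR-302 seed, had a difference of 1.06 on the log2 scale (adjusted p = 0.0472), from 0.65 in ESC and −0.41 in TSC, neither of which was called alone, and the call was lost in 11 of 16 alternatives. miR-32-5p, with the miR-367 seed, had a difference of −2.02 (adjusted p = 0.0128), from −1.33 in ESC and 0.69 in TSC, and the call was lost in 4 of 16. No member of the miR-302/miR-367 cluster was among them. Groups of 2 libraries are too small for a check of single outlying samples.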

How the results depend on the processing

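With 2 libraries per group and at most 20 counts of a member in any library, counting error limits every ratio, and nothing below the limit of 3 counts could be seen. The direction of every tested member in paused against control ESC and in control ESC against TSC held under all alternatives that gave a value. The number called on pausing of ESC ran from 1 to 3 with a library left out, 1 without control ESC replicate 2. Between control ESC and TSC 5 members were called with no filter, in which all were tested. The share of counts on the 5 members was 0.903% in control and 0.0210% in paused ESC over counts outside the miR-290/miR-295 cluster, a smaller denominator.

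Called seed partners on pausing of ESC numbered 1 with TMM computed without the miR-290/miR-295 cluster, 1 with the replicate block and 1 to 4 with a library left out (1 without paused ESC replicate 1). On pausing of TSC they numbered 1 by total count alone and 0 to 1 with a library left out (1 without control TSC replicate 2). Between control ESC and TSC they numbered 3 with DESeq2, 3 with median-of-ratios scaling, 3 by total count alone and 3 with TMM without that cluster, against 5. For pausing of ESC, miR-291a-3p was at 0.18 and miR-295-3p at 0.16 on the log2 scale with no filter, and with a library left out they ran from −0.15 to 0.22 and from −0.10 to 0.35. Between control ESC and TSC, miR-291a-3p ran from −0.72 to 0.074 with a control TSC library left out. The cause of these changes was not tested.

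Replicate numbers did not pair the libraries: deviations of same-numbered libraries correlated at −0.0715 in ESC and −0.183 in TSC over 206 miRNAs. With the replicate block the members called stayed at 3 on pausing of ESC and went from 3 to 2 between control ESC and TSC (miR-302d-3p, adjusted p = 0.0605). The numbers crossed within TSC, an alternative chosen after seeing the data as were the shares with a library left out, gave 3 in both.

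Of all tested miRNAs, on pausing of ESC, DESeq2 called 37 against 57. On pausing of TSC, 39 became 16 with DESeq2, 24 with median-of-ratios scaling, 16 with no filter, 12 with the replicate block, 25 with it crossed and 7 to 32 with a library left out. For the difference of pause effects, 54 became 30 with DESeq2, 30 with no filter, 31 with the replicate block and 26 to 65 with a library left out. Scaling also moved the split of higher and lower calls: from 17 and 40 to 29 and 37 by median of ratios on pausing of ESC, from 4 and 35 to 14 and 12 by total count on pausing of TSC, from 69 and 84 to 89 and 63 by total count between control cells, and from 30 and 24 to 17 and 40 by total count for the difference. With the scaling, the median of all miRNAs shifted by up to 0.63 between control cells and 0.14 on pausing of ESC.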
